A study of Zea mays with 4 samples.

Results

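The maize genes described here, named by symbol or locus identifier, each have at least 1 probe set with signal in 1 of 2 inbred lines only. In the other line that probe set read under the detection value. For LOC542766 and piip1, another probe set was detected in both lines. The set consists of 13 probe sets for 11 genes, out of 1108 genes that have a probe set of their own and 17621 probe sets, other than controls, of an Affymetrix maize array. Each probe set combines several short oligonucleotides that read 1 transcript cluster. Members were chosen by their array values: a probe set entered when its annotation gave exactly 1 gene, its log2 signal was 6 or more on both arrays of one line, and its log2 signal was under 5 on both arrays of the other. Gene families such as expansins, aquaporins and glutathione S-transferases, together with 6 further genes, were left out by name, which removed 16 of the 29 probe sets that otherwise qualified and left 1277 named probe sets that could enter. Signal in F98902 only was found for 3 probe sets of 3 genes (0.235% of the 1277), and signal in Cm484 only for 10 probe sets of 8 genes (0.783%). The same rule took 218 probe sets (1.24%) in F98902 and 236 (1.34%) in Cm484 from the whole array. Because these genes were selected on the line difference itself, their own values are given as a description and without a test.

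RNA of 2 samples of the inbred F98902, labelled as poorly digestible, and of 2 samples of the inbred Cm484, labelled as well digestible, was hybridised to 1 array each. No plant was treated. Per the labels, greenhouse days lasted 14 h at 22 °C, nights were kept at 20 °C, and plants were sampled in flower, 24 h ahead of ovulation. The labels name stem in one protocol and root in another, and they do not say whether samples of a line were separate plants, so a p-value here covers the spread among 4 samples that may be technical replicates. With 1 line of each kind, digestibility and every other difference between the lines cannot be told apart.

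Several of the genes act at known points of plant metabolism and development. Nitrate reductase makes nitrite from nitrate, the entry step of nitrogen assimilation, and phosphoenolpyruvate carboxylase kinase phosphorylates the carboxylase that first fixes carbon in C4 leaves. Nitrilases act on nitrile compounds, among them a precursor of auxin, alkaline alpha-galactosidases release galactose from sugars of the raffinose family, MADS-box proteins are transcription factors best known from flowers, and SET domain proteins methylate histones.

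On each array, 54.8% to 55.2% of probe sets had a log2 signal of 5 or more, the detection value used here. The labels give the least RNA for F98902 replicate 2 (120.7 ng, against 312.4 ng for F98902 replicate 1 and 416.8 and 342.3 ng for Cm484). On that array, the 5 detected probe sets at the 5′ end of housekeeping transcripts had a median log2 signal of -0.83 relative to the mean of the other arrays. The 5 at the 3′ end lay at 0.00, and the added poly-A spikes at 1.19. For F98902 replicate 1 the 5′ value was 0.86, a shift of similar size in the opposite direction. The poly-A spikes of the other arrays lay between -0.64 and -0.14, so these controls set F98902 replicate 2 apart. The part of these differences in the results was not tested.

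**Figure D1:**
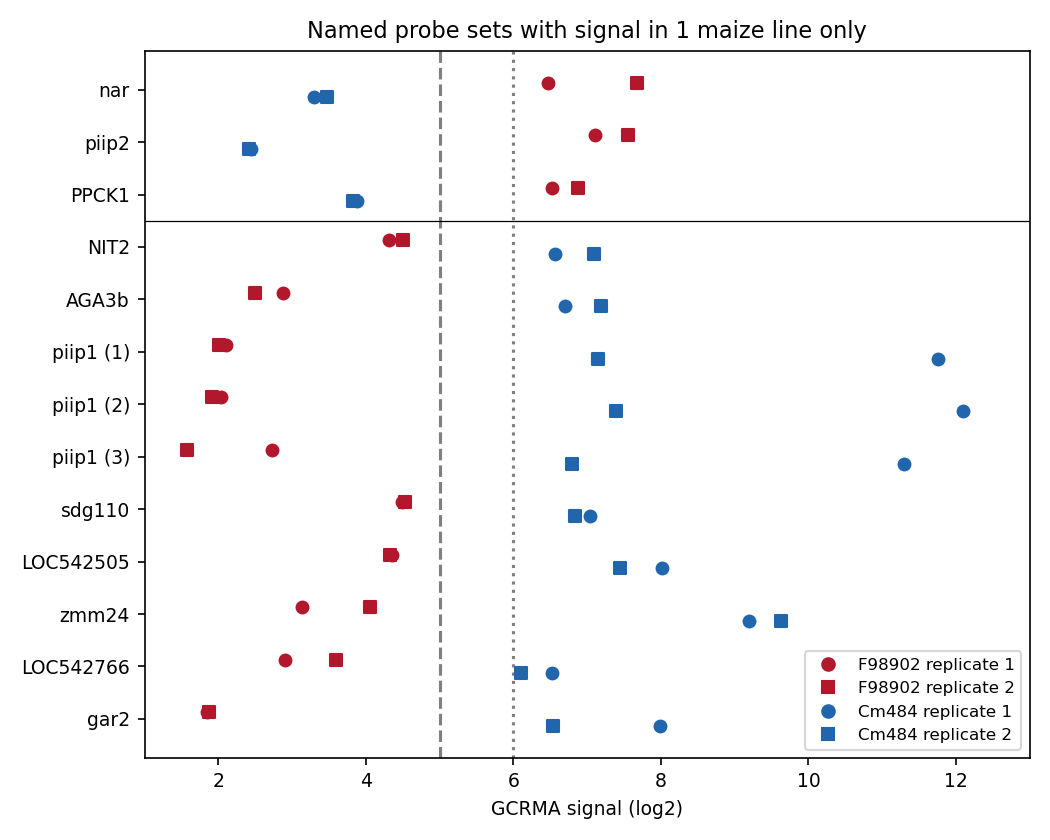
Log2 GCRMA signal of each of the 13 probe sets (rows) on the F98902 arrays (red, upper points of a row) and the Cm484 arrays (blue, lower points), with circles for replicate 1 and squares for replicate 2. The dashed line marks 5 and the dotted line 6, and the rows above the solid line have signal in F98902 only. The 3 piip1 rows have their Cm484 arrays more than 4 log2 units apart.

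The gene pair named for physical impedance split between the lines. piip1 and piip2 (also IIG1 and IIG2) carry names for transcripts induced in maize roots that meet mechanical resistance. piip2 (LOC541647) had log2 signals of 7.11 and 7.55 on the F98902 arrays, against 2.44 and 2.41 on the Cm484 arrays, at least 5.02-fold higher in F98902. A value under 5 is only a bound, so every such fold sets the mean of the line with signal against the detection value of 5. piip1 (LOC542597) went the other way: its brightest probe set read 2.04 and 1.92 on the F98902 arrays, against 12.09 and 7.39 on Cm484 replicates 1 and 2. Cm484 replicate 1 alone carries the very high piip1 signal.

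The bound for piip1 therefore rests on 1 array. Over both Cm484 arrays it was at least 26.7-fold higher in Cm484 for the brightest probe set, but 135.9-fold from replicate 1 and 5.24-fold from replicate 2. The other 2 piip1 probe sets that met the rule repeated this gap. They read 2.10 and 2.01 on the F98902 arrays against 11.76 and 7.15 on the Cm484 arrays, and 2.73 and 1.57 on the F98902 arrays against 11.29 and 6.80 on the Cm484 arrays. Of the 9519 probe sets detected on both Cm484 arrays, 4 had arrays more than 4 log2 units apart, and 3 of these 4 were the piip1 probe sets. The other one has no gene name here. The annotation assigns these 3 probe sets to the same gene. Their suffixes (_a_at and _x_at) mark probes that can match more than 1 transcript, so these probe sets are not independent readings.

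Further piip1 probe sets read differently. The gene has 6 probe sets in all. Another was detected in both lines, with 7.73 and 7.70 on the F98902 arrays and 8.20 and 8.33 on the Cm484 arrays, a log2 difference (F98902 minus Cm484) of -0.55 ± 0.15 (SE, n = 2 arrays a line). limma called it lower in F98902 (adjusted p = 0.0445), a call lost with the replicate block or with any array left out. Its Cm484 arrays read alike, unlike those of the 3 probe sets above. The remaining 2 were under 5 on all 4 arrays, the highest value being 4.71 on Cm484 replicate 1. The annotation thus joins under 1 gene a signal found in both lines and a signal found in Cm484 only. Which of them reads the piip1 transcript was not tested. The root-preferential zrp4 (LOC542706), the single probe set of the root marker list, read 2.34 and 2.07 on the F98902 arrays, against 8.83 and 8.59 on the Cm484 arrays. zrp4 met the limits of the rule itself and was left out of the set by its name. Its Cm484 arrays were close, and its part in the piip1 values was not tested. In samples of whole tissue, fewer cells of a type and less RNA per cell cannot be told apart.

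**Figure D2:**
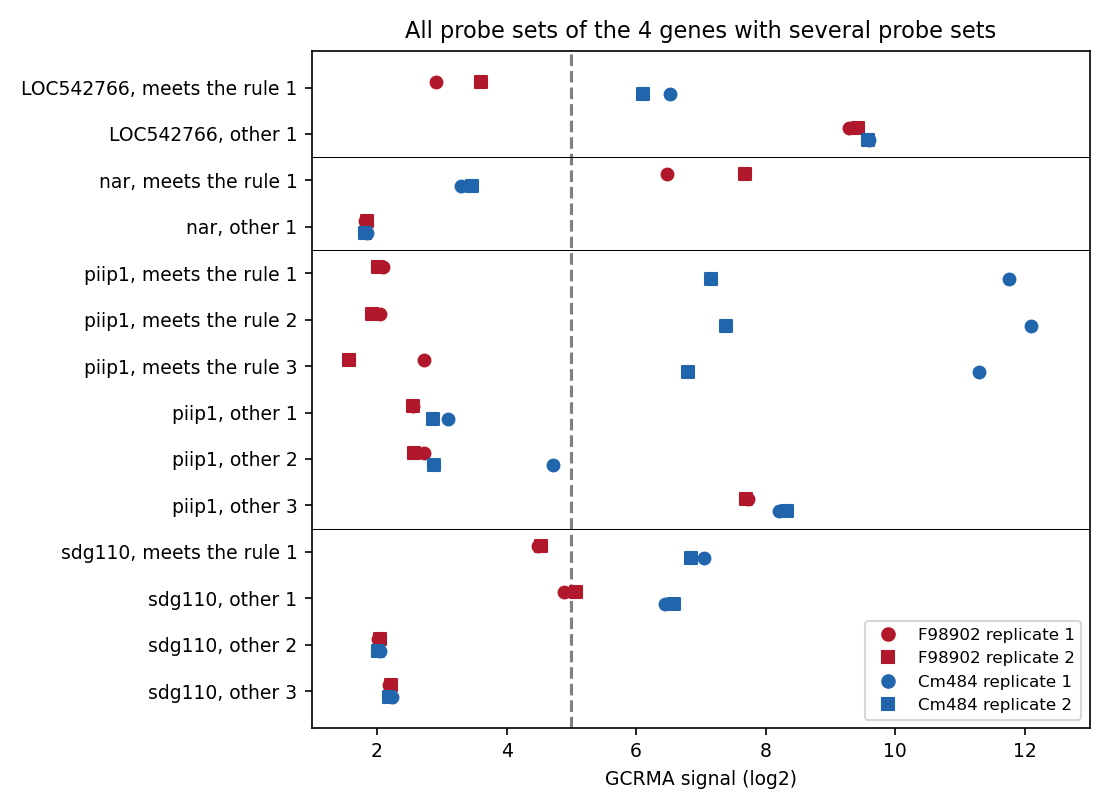
Log2 GCRMA signal of all 14 probe sets of the 4 genes that have several, with colours and symbols by line and replicate. Rows marked as meeting the rule have signal in 1 line only, the dashed line marks the detection value of 5, and the last other probe set of piip1 and the other probe set of LOC542766 lie above it on all 4 arrays.

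Of the metabolic genes, nar and PPCK1 had signal in F98902 only. nar, a symbol used in cereals for nitrate reductase, read 6.47 and 7.68 on the F98902 arrays, against 3.30 and 3.47 on the Cm484 arrays. This gave at least 4.20-fold higher signal in F98902, or 2.77-fold from replicate 1 and 6.39-fold from replicate 2. The replicates of F98902 were 1.21 log2 units apart, against a 90th percentile of 0.796 over the 218 probe sets with signal in F98902 only. The second nar probe set lay between 1.82 and 1.85 on all 4 arrays and shows nothing in either line.

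Among the other nitrogen assimilation genes, 1 was called and was higher in F98902. Of the 12 probe sets on that list, 9 were under 5 on all 4 arrays and 3 could be tested. In limma's test over 10131 probe sets, in which 34.9% were called at an adjusted p under 0.05 (17.7% higher and 17.1% lower in F98902), the call was the nitrite reductase gene NIR (LOC542264), whose enzyme acts next after nitrate reductase. NIR read 8.93 and 8.74 on the F98902 arrays, against 6.67 and 7.35 on the Cm484 arrays. Its log2 difference was 1.82 ± 0.26 (SE, limma adjusted p = 0.00558). A second NIR probe set, and those of a gene with the symbol NR, were among the 9 under 5. The nitrate reductase gene NNR1, an alias of which is NAR1S, was not called, with 6.20 and 6.50 on the F98902 arrays and 6.81 and 6.79 on the Cm484 arrays (limma adjusted p = 0.109). The glutamate dehydrogenase gene gdh1 (LOC542220) differed by 0.16 ± 0.21 (SE, limma adjusted p = 0.602). The median log2 difference of the 3 was 0.16, beside -0.02 over all probe sets tested.

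PPCK1 (LOC606483), the phosphoenolpyruvate carboxylase kinase, read 6.53 and 6.88 on the F98902 arrays, against 3.88 and 3.83 on the Cm484 arrays, at least 3.27-fold higher in F98902. Replicates of each line lay close together. The carboxylase gene pep1 (LOC542372) missed the filter for testing, with 5.50 and 4.35 on the F98902 arrays and 2.18 and 2.15 on the Cm484 arrays. A second carboxylase, pep (LOC542393), was not called, at -0.08 ± 0.18 (log2, SE, limma adjusted p = 0.762), and pep7 (LOC542479) was under 5 on all 4 arrays.

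Of the 20 probe sets on the leaf photosynthesis marker list, 15 were tested, 9 were higher and 1 was lower in F98902, where 17.7% of the array was higher and 17.1% lower, with a median log2 difference of 1.19 beside -0.02 over all probe sets tested. The 9 stand for 5 of the 10 genes tested, so they are not independent readings. Without F98902 replicate 2, 9 were higher and 0 lower. The log2 of their summed signal was 15.75 and 15.71 on the F98902 arrays, against 14.80 and 15.01 on the Cm484 arrays. Under 5 on all 4 arrays were 4 of the 20 probe sets, among them the probe set of the NADP-malic enzyme gene ME1 (LOC542233) and that of pep7. The part of green tissue in the PPCK1 difference was not tested.

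Signal in Cm484 only was found for the other 2 metabolic genes. The nitrilase gene NIT2 (LOC542093) read 4.32 and 4.50 on the F98902 arrays, against 6.57 and 7.09 on the Cm484 arrays, at least 3.55-fold higher in Cm484. Its F98902 values lie just under the detection value. The sister gene NIT1 (LOC542573) was level between the lines, with 7.87 and 7.61 on the F98902 arrays and 7.63 and 7.81 on the Cm484 arrays (log2 difference 0.02 ± 0.18 SE, limma adjusted p = 0.945).

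AGA3b (LOC606431) bears the name of an alkaline alpha-galactosidase. It read 2.88 and 2.50 on the F98902 arrays, against 6.70 and 7.19 on the Cm484 arrays, at least 3.84-fold higher in Cm484. Of the other genes with this name, AGA2 (LOC606464) was also lower in F98902, at 5.55 and 5.24 on the F98902 arrays against 7.75 and 7.65 on the Cm484 arrays. Its log2 difference was -2.30 ± 0.18 (SE, limma adjusted p = 0.000728), and it was called under every alternative that kept all 4 arrays. AGA1 (LOC606463) lay under 5 on all 4 arrays. AGA2 was the single call among the 5 tested probe sets whose gene symbol shares its stem with one of the 11 genes, where 34.9% of the array was called.

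The regulators zmm24 and sdg110 each had a probe set with signal in Cm484 only. The MADS-box gene zmm24 (LOC542038) read 3.13 and 4.05 on the F98902 arrays, against 9.20 and 9.63 on the Cm484 arrays, at least 21.4-fold higher in Cm484. Both Cm484 arrays gave a bound of this size, 18.4-fold and 24.8-fold. Of the 6 Cm484 genes whose replicates lay within 1 log2 unit, zmm24 had the highest bound. For comparison, the median bound of all 236 probe sets with signal in Cm484 only was 5.51-fold, and 1 in 10 exceeded 33.2-fold.

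Most other MADS-box genes gave no signal in either line. Of 19 further probe sets, 14 were under 5 on all 4 arrays, 4 were tested and none met the rule. Calls on this list, and on the homeobox and pollen lists below, stand beside 34.9% of the array called. The zap1 gene (LOC542257), of the group related to APETALA1 of Arabidopsis, was the single call: 8.96 and 9.24 on the F98902 arrays, against 10.08 and 10.52 on the Cm484 arrays (log2 difference -1.20 ± 0.22 SE, limma adjusted p = 0.0121). That call was lost without F98902 replicate 1, and with an intensity trend 1 further probe set was called, higher in F98902. zmm19 (LOC542033), also named tunicate1, was high in both lines and not called, at 11.69 and 11.61 on the F98902 arrays and 11.81 and 11.72 on the Cm484 arrays. The median log2 difference of the 4 was -0.12. Of 8 tested homeobox and knotted probe sets, limma called 0 (1 at an unadjusted p under 0.05), with a median of -0.18. With an intensity trend, with a common median or with the filter at 6 it called 1, knox7 (LOC732756), lower in F98902. With no filter 11 were tested, and the 1 call was a different gene, homeobox1 (LOC542406). It was also lower in F98902, and under 5 on all 4 arrays. Pollen and tassel markers gave 1 call in each direction among 5 tested of 13, mfs2 higher and glu1 (LOC542414) lower in F98902. With the replicate block 2 were higher and 1 lower, and with the filter at 6, 0 of 2 tested were called. The log2 of their summed signal was 13.74 and 13.80 on the F98902 arrays and 13.97 and 13.78 on the Cm484 arrays. Nearly all of it came from PRO4 (LOC541662), at 12.67 to 12.89, and DBB11 (LOC542625), at 12.67 to 13.04. Of the 13, 8 were under 5 on all 4 arrays, among them prf1, prf2 and prf3. The list was drawn by symbol pattern, and not every name on it need mark pollen or tassel. The part of floral tissue in the zmm24 difference was not tested.

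sdg110 (LOC542662), a SET domain gene, has 4 probe sets. The one that met the rule read 4.49 and 4.53 on the F98902 arrays, against 7.04 and 6.84 on the Cm484 arrays, at least 3.84-fold higher in Cm484. A second probe set gave the same direction, with 4.89 and 5.07 on the F98902 arrays against 6.45 and 6.59 on the Cm484 arrays and a log2 difference of -1.54 ± 0.17 (SE). It stayed outside the rule because F98902 replicate 2 exceeded 5. The other 2 were near 2 on all 4 arrays. Replicates of each line agreed within 0.20 log2 units for both responding probe sets. The related SDG123 (LOC542096) was not called (0.27 ± 0.19 SE, limma adjusted p = 0.321), and the 3 probe sets of sdg113 and sdg118 were under 5 on all 4 arrays.

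Roles of the remaining 3 genes are not given by the annotation used. gar2 (LOC541620, also GR1a) read 1.85 and 1.88 on the F98902 arrays, against 7.99 and 6.54 on the Cm484 arrays. It was at least 4.81-fold higher in Cm484, or 7.95-fold from replicate 1 and 2.91-fold from replicate 2. The gene gar1 (LOC542539, also GR2c) lay between 2.25 and 2.31 on all 4 arrays. LOC542505 read 4.36 and 4.33 on the F98902 arrays, against 8.01 and 7.45 on the Cm484 arrays, at least 6.64-fold higher in Cm484.

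LOC542766 was the gene closest to the limits of the rule. The probe set that met it read 2.91 and 3.60 on the F98902 arrays, against 6.52 and 6.10 on the Cm484 arrays, at least 2.47-fold higher in Cm484. A second probe set of the gene was bright and nearly level, with 9.29 and 9.42 on the F98902 arrays and 9.59 and 9.58 on the Cm484 arrays (log2 difference -0.23 ± 0.15 SE). Signal in 1 line only is thus a property of 1 of its 2 probe sets. Absence of a transcript form and a sequence that the probes do not match in one line cannot be told apart here. For the other genes too, little transcript and unmatched probes cannot be told apart, and 7 of the 11 genes have a single probe set.

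**Figure D3:**
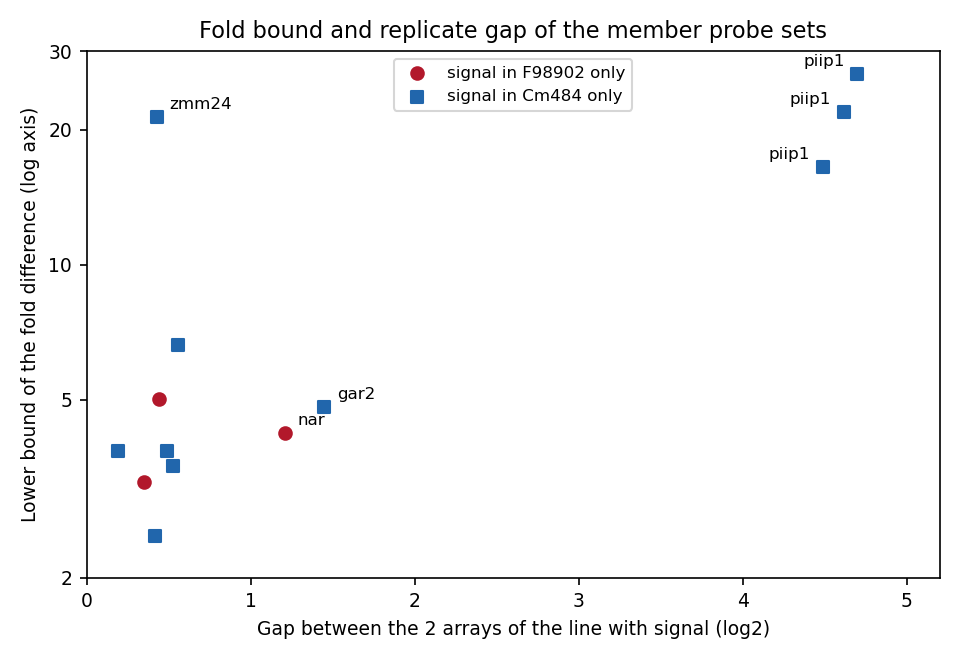
Lower bound of the fold difference (log axis, against the detection value of 5) of the 13 probe sets, plotted against the gap between the 2 arrays of the line with signal (log2 units), with circles for signal in F98902 only and squares for signal in Cm484 only. The 3 piip1 points lie beyond a gap of 4, gar2 and nar lie between 1 and 2, and zmm24 combines a bound of 21.4-fold with a gap of 0.43.

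Agreement between replicates thus differed among the genes. In the line with signal, the 3 F98902 probe sets had gaps of 0.35 to 1.21 log2 units, and the 7 Cm484 probe sets other than those of piip1 had gaps of 0.19 to 1.45. Over the whole array the median gap was 0.31 for the 218 probe sets with signal in F98902 only and 0.36 for the 236 with signal in Cm484 only. A gap above 1 occurred in 11 of the 218 and in 26 of the 236. Between replicates, Pearson's r was 0.979 for F98902 and 0.982 for Cm484 across the 10131 probe sets tested, which are not independent of each other.

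Just inside the limits, after LOC542766, were nar and sdg110, with values given above. Just outside was mfs2 (LOC541978), at 5.97 and 6.53 on the F98902 arrays against 2.88 and 3.01 on the Cm484 arrays. pk8-a (LOC732721) read 4.45 and 5.02 on the F98902 arrays against 5.96 and 6.10 on the Cm484 arrays. sbip1b (LOC541892) read 5.06 and 4.89 on the F98902 arrays against 6.58 and 6.98 on the Cm484 arrays. These 3 missed the rule by less than 0.1 log2 units on 1 or 2 arrays.

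Of the 11 genes, 7 have a single probe set on the array, so 4 could be read a second time. Their 8 other probe sets gave 0 that met the rule. Of these 8, 5 were under 5 on all 4 arrays and 3 were detected. limma called 2 of the 3, those of piip1 and sdg110, both lower in F98902, beside 34.9% of the array, and the piip1 call was lost as given above. They come from the same RNA and the same genes as the choice of the set, and nothing is read from that count.

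**Figure D4:**
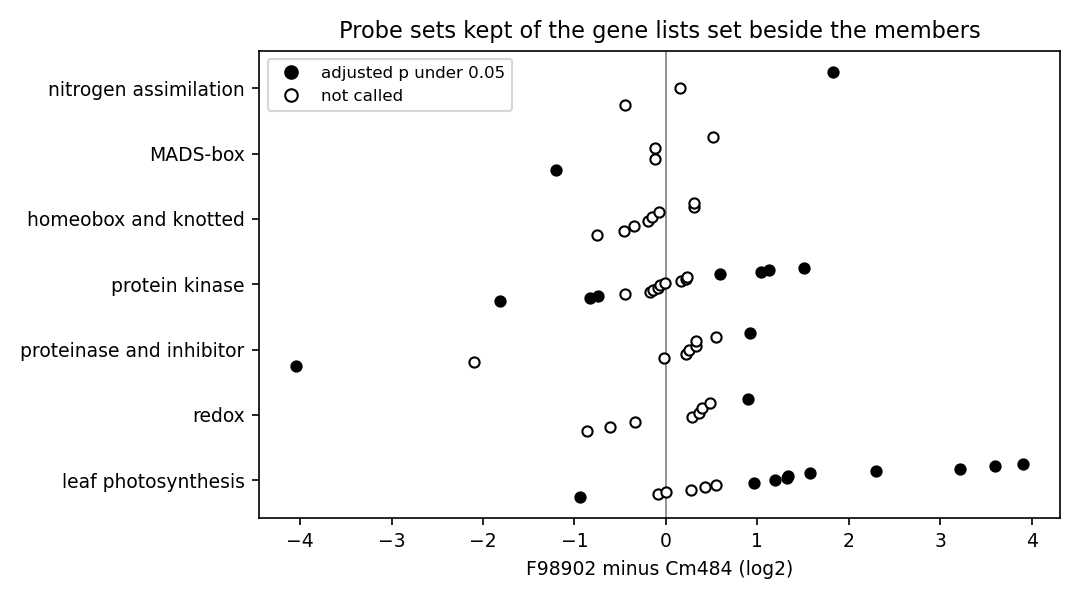
Log2 difference, F98902 minus Cm484, of each tested probe set (points) of 7 gene lists (rows), with filled points for an adjusted p under 0.05 in limma and open points for the rest. Leaf photosynthesis has 9 filled points to the right of 0 and 1 to the left, and the far left point of proteinase and inhibitor genes is cc7.

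Around the kinase PPCK1 and the other regulators, 16 probe sets named for protein kinases were tested, with a median log2 difference of -0.03. Of these, 4 were higher and 3 lower in F98902 and 9 not called, where 17.7% of the array was higher and 17.1% lower. The 4 higher probe sets stand for 3 genes. Without F98902 replicate 2, or without Cm484 replicate 1, 2 were higher and 1 was lower, and without Cm484 replicate 2, 3 were higher and 1 was lower. Without F98902 replicate 1, 2 were higher and 3 lower, with no filter 3 were higher and 4 lower, and with the replicate block 3 were higher and 3 lower. The receptor kinase gene serk3 (LOC542670) read 6.54 and 6.62 on the F98902 arrays, against 8.14 and 8.65 on the Cm484 arrays (-1.81 ± 0.22 SE, limma adjusted p = 0.0031). In the other direction pk4 (LOC541785) differed by 1.52 ± 0.25 (log2, SE, limma adjusted p = 0.00895), and a calcium-dependent protein kinase gene, CDPK (LOC606407), by 1.13 ± 0.15 (log2, SE, limma adjusted p = 0.0047). A second CDPK probe set was called at 0.60, a call lost with the replicate block or with any array left out, and another, at 8.28 and 8.12 on the F98902 arrays and 8.05 and 8.01 on the Cm484 arrays, was not called (0.17 ± 0.16 SE, limma adjusted p = 0.452). The kinase mpk6 (LOC542143) differed by -0.82 ± 0.15 (log2, SE, limma adjusted p = 0.0125) and lost its call without F98902 replicate 2 or with either Cm484 array left out.

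Calls on the proteinase and inhibitor list and on the redox list stand beside 34.9% of the array called, 17.7% higher and 17.1% lower in F98902. In the proteinase and inhibitor list, 9 probe sets were tested, 1 higher and 1 lower in F98902. The lower one was cc7 (LOC732754), a name used for a corn cystatin, an inhibitor of cysteine proteinases. It was detected in both lines and so lies outside the rule, at 5.98 and 5.82 on the F98902 arrays against 10.11 and 9.79 on the Cm484 arrays. Its log2 difference was -4.05 ± 0.19 (SE, limma adjusted p = 0.000142), with no call lost under any alternative. The higher one was ccp2 (LOC542451), a cysteine proteinase name, at 0.92 ± 0.23 (log2, SE, limma adjusted p = 0.0306), a call lost with no filter, with the replicate block, without Cm484 replicate 1 or with either F98902 array left out. A second ccp2 probe set, at 12.93 and 12.57 on the F98902 arrays and 11.96 and 12.44 on the Cm484 arrays, was not called (0.55 ± 0.24 SE, limma adjusted p = 0.135). The wound-induced proteinase inhibitor name wip1 (LOC542729) read 8.72 and 7.15 on the F98902 arrays, against 10.77 and 9.29 on the Cm484 arrays, and was not called (-2.10 ± 0.68 SE, limma adjusted p = 0.0668). With the replicate block or without F98902 replicate 1 it was called, and the list then had 0 higher and 2 lower. Among 8 tested redox probe sets the single call was a thioredoxin name, trh2 (LOC606487), higher in F98902 by 0.90 ± 0.22 (log2, SE, limma adjusted p = 0.0287), lost with no filter, with the replicate block, without F98902 replicate 1 or with either Cm484 array left out. The list had 2 higher and 0 lower with an intensity trend, 0 higher and 1 lower without Cm484 replicate 2, where the call was the superoxide dismutase name Sod4A, and 0 higher and 1 lower without F98902 replicate 1, where it was sod2 (LOC542260).

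Of 35 seed probe sets, 32 were under 5 on all 4 arrays and 1 of 3 tested was called, lower in F98902. Of 18 probe sets for dividing cells, 8 were tested, 2 higher and 1 lower in F98902. Without F98902 replicate 2 the seed list had 1 higher and 1 lower. The split for dividing cells was 1 higher and 2 lower without Cm484 replicate 2, 0 higher and 1 lower with no filter, and 2 higher and 1 lower without F98902 replicate 1. It was 1 and 1 under each of the other alternatives run. Both lists stand beside 34.9% of the array called.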

How the data were processed

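Per the labels, total RNA of 4 samples was labelled with biotin after amplification and hybridised to Affymetrix maize arrays. Per the submitters' processing notes, the deposited log2 values were made with GCRMA in R 2.6.2, which corrects background by probe sequence, normalizes by quantiles and summarises each probe set. Further steps: not given in the sources used here. No other scaling was applied to the deposited log2 values, and 113 control probe sets were left out. The number of arrays limits the precision.

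Gene names came from the platform annotation, updated by identifier to RefSeq's gene table (Zm-B73-REFERENCE-NAM-5.0), in which 10 of the 11 genes were found. Prefixes in the rule were matched ignoring case. Probe sets at 5 or more on at least 2 of the 4 arrays were fitted with limma 3.58.1 in R 4.3.3 (F98902 minus Cm484, two-sided, Benjamini-Hochberg over 10131). With 100 probe sets changed 2-fold and 100 changed 4-fold in simulated data for this comparison, 64 and 99 were recovered, with 14 calls among 9931 unchanged.

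All probe sets of the chosen genes are named, and up to 4 called ones of each list by smallest p. Members and lists were chosen with earlier results of these data known. Lists are symbol patterns and may take in unrelated names. Alternatives changed the limits of the rule, the filter, the normalization, the variance prior, the replicate number as a term, and the arrays used. The replicate numbers are not said to pair samples.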

Additional observations from a re-analysis of the deposited data

How the results depend on the processing

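The set depends on the limits of its rule. With 7 or more against under 5, it held 1 probe set with signal in F98902 only and 4 with signal in Cm484 only (104 and 130 on the whole array). With 6 or more against under 4 the Cm484 count was 6, and the whole array gave 125 in F98902 and 155 in Cm484. With 6 or more against under 6 the counts were 14 in F98902 and 26 in Cm484 (471 and 452 on the whole array), and 2 genes had several such probe sets instead of 1. A second normalization, by quantiles or to a common median, moved none of these counts by over 1.5 times. With 1 array left out, the F98902 count was 4 to 7. limma's calls over the whole array numbered 2205 (without Cm484 replicate 1) to 2706 with 1 array left out, against 3533 with all arrays, and 2339 without F98902 replicate 2. Calls on the functional lists numbered 6 (without Cm484 replicate 1) to 10, against 12 with all arrays, and 7 without F98902 replicate 2. Of the 2 calls on other probe sets of the chosen genes, that of sdg110 remained and that of piip1 was lost with any array left out (1 to 1 calls). With the replicate block it was lost too (1 call), and the whole array gave 2983 calls. Deviations of equally numbered arrays correlated at r = -0.02, so the numbers were not used to pair samples. Values near 5 carry little signal over background, and a bound says nothing about how far below 5 a transcript lies.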
